A study of Mus musculus with 18 samples.

Results

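The list described here holds the nuclear genes of the mitochondrial ribosome and of the mitochondrial protein import machinery in mouse embryos. Its members are all genes whose symbol begins with Mrpl, Mrps, Timm or Tomm, with pseudogenes left out, so they were chosen by name and not by any measured value. The rule found 96 genes among the 8202 genes that appear in at least 1 of the 3 stage tables, and 91 of them are in all 3. They are 47 Mrpl genes, 27 Mrps genes, 14 Timm genes and 8 Tomm genes. The rule also takes Timmdc1, an assembly factor of respiratory complex I, and Tomm6os, a noncoding RNA on the strand opposite Tomm6, because their symbols match. The study compared Oct4 -/- embryos, called Oct4 null, with Oct4 +/+ embryos, called wild type, to find genes that depend on Oct4 in vivo. Oct4, encoded by Pou5f1, is a transcription factor of pluripotent cells. All embryos were of the CD1 strain and untreated. They were flushed from oviducts or uteri at embryonic day 2.5 (E2.5), before the blastocyst forms, at E3.75, the blastocyst, or at E4.5, the late blastocyst. Each stage has 3 Oct4 null and 3 wild type libraries, 18 in all. The 3 libraries per genotype and stage carry no litter or day of collection, so a p-value here measures only how far the libraries spread. RNA was primed with oligo(dT), and reads lie mostly near the 3′ ends of polyadenylated transcripts.

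Mitochondria keep their own ribosome, which translates the few proteins encoded in mitochondrial DNA, core subunits of the respiratory chain. All proteins of that ribosome are encoded in the nucleus, made in the cytosol and imported. Precursors enter through the TOM complex of the outer membrane, built around the channel protein Tomm40, and are then passed on by the TIM23 complex to the matrix, or by the small Tim chaperones and the TIM22 complex to the inner membrane. Mitochondria of the early embryo come from the egg, and they mature as the blastocyst forms.

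Levels are given in CPM as the authors deposited them for each stage. These are reads per 1000000 of a library's reads on the genes kept in that stage's table. No gene of a table is low in all libraries. The lowest third-highest value of any gene was 10.3 CPM at E2.5, 10.4 CPM at E3.75 and 10.4 CPM at E4.5. A gene below that level in all libraries of 1 genotype is thus present only through the other genotype. The reads behind the values numbered 364936 in the shallowest library, Oct4 null library 1 of E4.5, and 1922432 in the deepest. Median depth was higher in Oct4 null than in wild type libraries at every stage. A blend of the first 2 libraries matched the third one closely in all 6 groups, with residual variance at 0.98 to 1.25 times that of sampling, while libraries 1 and 2 stood at 1.07 to 2.76 times when matched in the same way. If such a match means that the libraries of a group are not independent, each SD, SE and p-value here is too small. Their independence was not tested. For this reason results are repeated below with only libraries 1 and 2 of each group. Pou5f1 (ENSMUSG00000024406) averaged 968 ± 40.1 CPM in Oct4 null and 1875 ± 194 CPM in wild type libraries at E2.5 (SD, n = 3 each). It averaged 258 ± 33.3 CPM in Oct4 null and 509 ± 115 CPM in wild type libraries at E3.75, and 111 ± 26.9 CPM in Oct4 null and 231 ± 45.9 CPM in wild type libraries at E4.5. The Oct4 null libraries lay below the wild type libraries at each stage, and the deleted stretch of the gene is not stated, so the remaining reads do not check the genotype. In whole embryos, fewer cells of a type and less RNA per cell cannot be told apart.

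The 91 genes measured at all stages took up a small and declining share of the reads. To set stages side by side, each library was expressed as a share of its reads on the 5430 genes present in all 3 tables. The tables were scaled separately, so these stage values are a description with no test. The share at E2.5 was 1.75% ± 0.01 in Oct4 null and 1.85% ± 0.03 in wild type libraries (SD, n = 3 each). At E3.75 it was 1.59% ± 0.04 in Oct4 null and 1.59% ± 0.01 in wild type libraries, and at E4.5 it was 1.43% ± 0.02 in Oct4 null and 1.35% ± 0.03 in wild type libraries. Relative to wild type, Oct4 null libraries were below at E2.5, overlapped at E3.75 and were above at E4.5. These shares are scaled on total reads, like the deposited CPM. At E4.5 the median difference in log2(CPM + 1) over all genes was 0.06 on the deposited scale, Oct4 null minus wild type. With TMM factors, another scaling, that median was 0.0023, and the shares were not recomputed with them.

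The Mrpl genes carried most of these genotype differences in share. The Mrpl share ranged from 0.855% to 0.860% in Oct4 null and from 0.927% to 0.970% in wild type libraries at E2.5. At E4.5 it ranged from 0.790% to 0.824% in Oct4 null and from 0.727% to 0.766% in wild type libraries. On this scaling by total reads the groups did not overlap at either stage, with Oct4 null lower at E2.5 and higher at E4.5. The Timm share differed less by genotype than by stage. It averaged 0.280% in Oct4 null and 0.278% in wild type libraries at E2.5, 0.214% in Oct4 null and 0.215% in wild type libraries at E3.75, and 0.138% in Oct4 null and 0.136% in wild type libraries at E4.5. The Tomm share averaged 0.179% in Oct4 null and 0.173% in wild type libraries at E2.5, and 0.115% in Oct4 null and 0.116% in wild type libraries at E4.5.

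**Figure D1:**
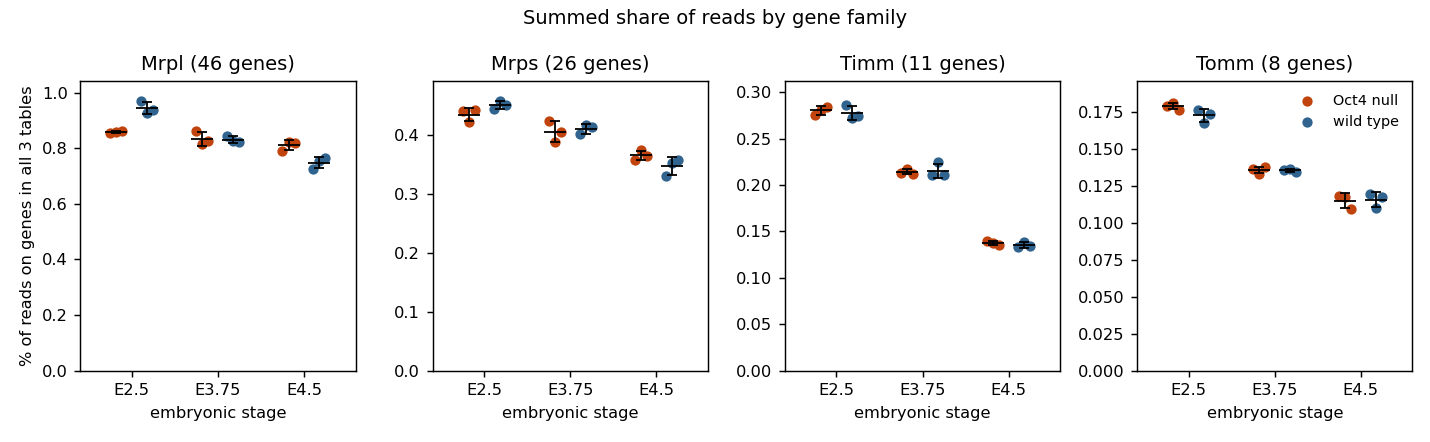
Summed reads of each gene family in each library, as a percentage of reads on genes present in all 3 tables, by embryonic stage, with Oct4 null libraries in orange left of wild type libraries in blue; bars are the mean and SD of 3 libraries. The Timm share averages 0.280% in Oct4 null and 0.278% in wild type libraries at E2.5, and 0.138% in Oct4 null and 0.136% in wild type libraries at E4.5. The Mrpl groups separate at E2.5 and, the other way round, at E4.5, with shares scaled on total reads alone.

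Gene by gene, few members differed between genotypes beyond the spread of the libraries. Differences are given as log2(CPM + 1), Oct4 null minus wild type. Each has its standard error (SE) and the limma p adjusted over all genes of the stage, and a gene passed at an adjusted p under 0.05. Unless another tool or fit is named, passing refers to limma on all 6 libraries of the stage. At E2.5 no member of 96 passed, where 0.593% of all 7082 genes did. At E3.75, 3 of 91 members passed, Tomm6, Mrpl14 and Mrps12, and all were lower in Oct4 null libraries, where 8.2% of all 6648 genes passed, 4.6% lower and 3.6% higher. At E4.5 no member of 92 passed, where 0% of all 6545 genes did. The share of members called was not above that of all genes at any stage.

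The counts differed between tools. At E2.5, 17 members (17.7%) had an unadjusted p under 0.05 in limma, against 20.4% of all genes. In edgeR's quasi-likelihood test 2 members passed, where 2.53% of all genes did. In DESeq2 3 members passed, where 4.27% of the 5434 genes with an adjusted p did. At E3.75, 17 members (18.7%) had an unadjusted p under 0.05 in limma, against 22.8% of all genes. At E4.5, 14 members (15.2%) did, against 15% of all genes. There 1 member passed in edgeR, where 0.642% of all genes did. In DESeq2 0 members passed there, where 4.29% of the 2611 genes with an adjusted p did. At E3.75, 5 members passed in edgeR, where 8.3% of all genes did. In DESeq2 1 member passed, where 6.65% of the 4328 genes with an adjusted p did. At E2.5 the count of 0 became 4 without wild type library 1, where 5.51% of all genes passed, and 11 without wild type library 2, where 10.9% did. At E3.75 the count of 3 became 1 without Oct4 null library 3, where 4.32% of all genes passed, and 1 without wild type library 3, where 3.14% did. It became 8 without wild type library 2, where 9.81% did, and 0 with 2 libraries a group, the first ones, where 2.33% did.

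The members separated by genotype at about the rate of all genes. The 3 Oct4 null libraries did not overlap the 3 wild type libraries for 27 of 96 members at E2.5, 10 above and 17 below, where 27.8% of all genes separated, 13.6% above and 14.1% below. The same held for 21 of 91 members at E3.75, 9 above and 12 below, where 27.2% of all genes separated, 11.4% above and 15.7% below. At E4.5 it held for 22 of 92 members, 13 above and 9 below, where 22.2% of all genes separated, 12.2% above and 9.99% below. The members were measured well relative to other genes. The median SE of a difference was 0.14 for members and 0.24 for all genes at E2.5, 0.14 for members and 0.23 for all genes at E3.75, and 0.16 for members and 0.26 for all genes in E4.5 embryos. For genes at a mean CPM between the 10th and 90th percentile of the members it was 0.19, 0.18 and 0.24 at those stages. The estimated difference was within 20% in either direction for 69 of 96 members at E2.5. It was so for 65 of 91 at E3.75, and for 59 of 92 in E4.5 embryos. Over all genes the share within 20% was 50.6% at E2.5, 51.8% at E3.75 and 50.6% in E4.5 embryos. Over genes whose mean CPM lay between the 10th and 90th percentile of the members, it was 56.1%, 58.4% and 52.1%.

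By family, the Mrpl genes leaned to lower values in Oct4 null embryos at E2.5 and to higher values at E4.5. At E2.5, 37 of 47 Mrpl differences were below 0, with a median of -0.13, against 51.7% of all genes and a median of -0.02. That count was 37 with TMM factors and with DESeq2 size factors as well, and 34 without the third libraries. At E4.5, 16 of 47 Mrpl differences were below 0 and 31 above, with a median of 0.19, where 44.0% of all genes were below 0, with a median of 0.06. With TMM factors 21 of 47 were below 0 and 26 above, with a median of 0.13, where 49.8% of all genes were below 0. At E3.75 the Mrpl median was -0.03 on the deposited scale and 0.02 with TMM factors. No test was made of these directions. Summed over 10 measured epiblast markers, E4.5 libraries held 365 to 430.2 CPM in Oct4 null and 636 to 761 CPM in wild type, and the part of this difference in the Mrpl values was not tested.

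The other families showed smaller or mixed leanings. The Mrps median was -0.04 at E2.5, it was -0.08 at E3.75, and it was 0.13 at E4.5. The E4.5 Mrps median was 0.07 with TMM factors, 0.03 in edgeR and 0.20 without the third libraries. For Timm genes the E2.5 median was 0.17, the E3.75 median -0.05 and the E4.5 median 0.08, but the E3.75 median was 0.06 in thinned reads, 0.03 in edgeR and 0.09 without the third libraries, and the E4.5 median was -0.03 in edgeR. For Tomm genes the E2.5 median was 0.10, the E3.75 median 0.07 and the E4.5 median -0.01. The E4.5 Tomm median was 0.01 in thinned reads and 0.03 without the third libraries. It was -0.07 with TMM factors, -0.06 with DESeq2 size factors and -0.09 in edgeR. Over all members the E2.5 median was -0.09, against -0.02 over all genes, the E3.75 median -0.03, against -0.04, and the E4.5 median 0.08, against 0.06. At E3.75 the members' median was 0.02 with TMM factors.

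**Figure D2:**
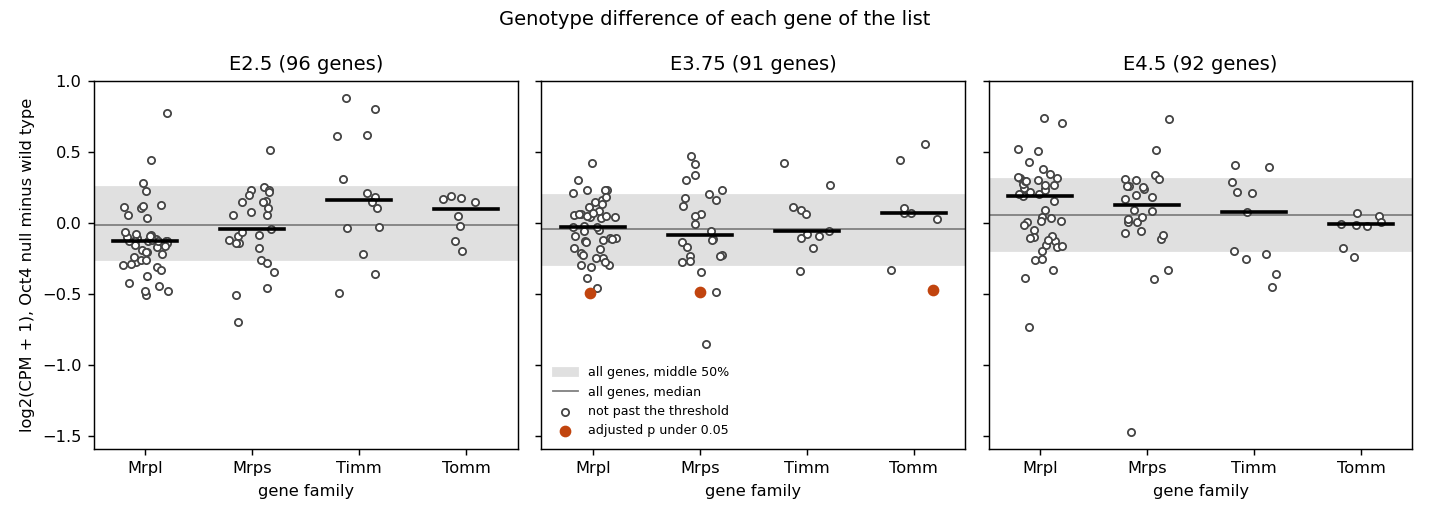
Difference in log2(CPM + 1) between Oct4 null and wild type libraries for each gene of the list, by family and stage; the black bar is the family median, the grey band runs from the lower to the upper quartile of all genes and filled points passed an adjusted p of 0.05 in limma. Filled points occur at E3.75 alone, for Mrpl14, Mrps12 and Tomm6, all below 0.

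Among the proteins of the large subunit of the mitochondrial ribosome, Mrpl14 (ENSMUSG00000023939) fell at E3.75. It held 125, 125 and 125 CPM in the Oct4 null libraries, against 192, 166 and 172 CPM in the wild type libraries. All Oct4 null libraries were below all wild type libraries, and the difference was -0.49 (SE 0.13, limma adjusted p = 0.0196). At E2.5 Mrpl14 held 145, 128 and 126 CPM in Oct4 null and 153, 162 and 140.2 CPM in wild type libraries, which overlapped (difference -0.19, SE 0.13, limma adjusted p = 0.432). At E4.5 the groups also overlapped, at 118, 116 and 144 CPM in Oct4 null and 118, 139.6 and 132 CPM in wild type libraries. The E3.75 call was lost without Oct4 null library 1 (limma adjusted p = 0.0661), Oct4 null library 3 (0.0866) or without wild type library 3 (0.0651), in DESeq2 (0.0747) and with the first 2 libraries (0.212). Over the 17 alternatives its adjusted p ran from 0.0178 to 0.212.

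Mrpl35 and Mrpl10 came closest to the threshold at E2.5, in opposite directions. Mrpl35 (ENSMUSG00000052962), a large subunit protein with a bacterial counterpart, held 228, 234 and 218 CPM in Oct4 null and 336, 305 and 309 CPM in wild type libraries. Every Oct4 null library was lower, with a difference of -0.48 (SE 0.10, limma adjusted p = 0.0558). Mrpl10 (ENSMUSG00000001445), which sits at the base of the ribosomal stalk, held 101.3, 106 and 98.6 CPM in Oct4 null and 50.2, 65.7 and 62.4 CPM in wild type libraries. Here the Oct4 null libraries were all higher, with a difference of 0.78 (SE 0.17, limma adjusted p = 0.0558). Both passed in edgeR and in DESeq2 and in limma without wild type library 1 or 2, and neither passed with the first 2 libraries (0.667 for each). Their adjusted p ran from 0.0178 to 0.667 for Mrpl35 and from 0.0126 to 0.667 for Mrpl10 over 17 alternatives. Of the last 500 bases of the Mrpl10 transcript, 219 are shared with the antisense gene Gm11574, and without a statement on strand their reads cannot be told apart.

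Mrpl1 (ENSMUSG00000029486), the counterpart of a bacterial protein of the large subunit, was lower in Oct4 null libraries at 2 stages without passing. It held 54.3, 51.0 and 50.6 CPM in Oct4 null and 76.4, 71.4 and 74.6 CPM in wild type libraries at E2.5 (difference -0.50, limma adjusted p = 0.125). At E4.5 it held 8.22, 6.09 and 12.7 CPM in Oct4 null and 12.9, 13.6 and 19.3 CPM in wild type libraries (difference -0.73, limma adjusted p = 0.410), from 3 to 21 reads a library. The groups did not overlap at either stage.

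At E4.5 the smallest p among the Mrpl genes belonged to Mrpl58 (ENSMUSG00000018858), a peptidyl-tRNA hydrolase that is built into the large subunit. It held 301, 270.0 and 280.0 CPM in Oct4 null and 158, 233 and 213 CPM in wild type libraries. The Oct4 null libraries were all higher, and the difference of 0.51 did not pass (SE 0.15, limma adjusted p = 0.183). Mrpl44 (ENSMUSG00000026248), a large subunit protein, held 38.4, 39.6 and 34.3 CPM in Oct4 null and 18.4, 27.1 and 21.1 CPM in wild type libraries (difference 0.74, SE 0.25, limma adjusted p = 0.216). Mrpl9, another large subunit protein, averaged 15.5 ± 2.54 CPM in Oct4 null and 9.43 ± 3.59 CPM in wild type libraries (SD, n = 3 each; difference 0.70, limma adjusted p = 0.414).

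Among the small subunit proteins, Mrps12 (ENSMUSG00000045948), a protein near the decoding site, fell at E3.75. It held 134, 116 and 116 CPM in Oct4 null and 179, 164 and 170.1 CPM in wild type libraries. All Oct4 null libraries were lower, with a difference of -0.48 (SE 0.13, limma adjusted p = 0.0246). At E2.5 they were lower too, at 217, 218 and 239 CPM in Oct4 null and 368, 275 and 289 CPM in wild type libraries, a difference of -0.45 that did not pass (SE 0.13, limma adjusted p = 0.0918). At E4.5 Mrps12 held 290.5, 288 and 273 CPM in Oct4 null and 180.5, 285 and 218 CPM in wild type libraries, which overlapped (difference 0.34, SE 0.16, limma adjusted p = 0.335). The E3.75 call was lost without Oct4 null library 2 (limma adjusted p = 0.0769), Oct4 null library 3 (0.132) or without wild type library 3 (0.0856), in DESeq2 (0.0793), with all 18 libraries in one fit (0.0504) and with the first 2 libraries (0.313). Over 17 alternatives its adjusted p ran from 0.0225 to 0.313.

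Mrps11 and Mrps16, both with bacterial counterparts, did not pass in limma on the libraries of any single stage. Mrps11 (ENSMUSG00000030611) held 147, 130.04 and 138 CPM in Oct4 null and 205, 199 and 184 CPM in wild type libraries at E2.5, a difference of -0.50 (SE 0.12, limma adjusted p = 0.0677). It passed in DESeq2 (adjusted p = 0.0474) and in limma without wild type library 1 (0.0408) or wild type library 2 (0.0323). At E3.75 it held 161, 161 and 157 CPM in Oct4 null and 175, 204 and 201 CPM in wild type libraries, again without overlap (difference -0.27, limma adjusted p = 0.182), and at E4.5 the groups overlapped. Mrps16 (ENSMUSG00000049960) held 43.3, 52.5 and 57.4 CPM in Oct4 null and 94.9, 70.3 and 85.1 CPM in wild type libraries at E2.5 (difference -0.70, SE 0.19, limma adjusted p = 0.0859). This passed in limma with all 18 libraries in one fit (0.0333) and without wild type library 2 (0.0227). At E4.5 the order was the other way round, at 112, 87.5 and 86.4 CPM in Oct4 null and 70.0, 83.4 and 75.3 CPM in wild type libraries (difference 0.31, SE 0.18, limma adjusted p = 0.413).

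Mrps33 (ENSMUSG00000029918), a protein particular to mitochondrial ribosomes, had the lowest estimate of the whole list. At E4.5 it held 8.22, 8.37 and 8.19 CPM in Oct4 null and 23.9, 31.0 and 20.2 CPM in wild type libraries. The groups were far apart, yet they rest on 3 to 22 reads a library, and the difference of -1.47 did not pass (SE 0.34, limma adjusted p = 0.138). It passed in edgeR (0.0498) and with all 18 libraries in one fit (0.02005), and reached 0.832 with the first 2 libraries. At E3.75 Mrps33 held 9.25, 7.27 and 8.35 CPM in Oct4 null and 13.2, 11.9 and 24.3 CPM in wild type libraries, with no overlap (difference -0.85, SE 0.40, limma adjusted p = 0.212). The lowest third-highest value of any gene was 10.4 CPM at E3.75 and at E4.5, and only wild type libraries of Mrps33 reached it. At both stages Mrps33 is thus present only through the group where it is high, so its gap is not free of that selection. At E2.5 the groups overlapped, at 16.9, 10.92 and 10.95 CPM in Oct4 null and 16.4, 15.0 and 15.4 CPM in wild type libraries.

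Mrps6, Mrps27 and Mrps10 were among the greatest estimates of the small subunit without passing in limma on the deposited values of all 6 libraries of a stage. Mrps6 (ENSMUSG00000039680), a small subunit protein, held 156, 119.9 and 147 CPM in Oct4 null and 80.9, 115 and 109 CPM in wild type libraries at E3.75 (difference 0.47, limma adjusted p = 0.0669). It passed in edgeR (adjusted p = 0.0476) and in limma with TMM factors (0.0433), with DESeq2 size factors (0.0445), without Oct4 null library 2 (0.0428) and without wild type library 2 (0.0411). Mrps27, an RNA-binding small subunit protein, averaged 20.4 ± 1.40 CPM in Oct4 null and 29.4 ± 7.69 CPM in wild type libraries at E3.75 (SD, n = 3 each; difference -0.48, limma adjusted p = 0.305). Mrps10, a small subunit protein, averaged 27.8 ± 16.9 CPM in Oct4 null and 15.4 ± 7.17 CPM in wild type libraries at E4.5, with overlapping libraries (difference 0.73, limma adjusted p = 0.446).

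Of the outer membrane translocase, Tomm6 (ENSMUSG00000033475), a small subunit that steadies the TOM complex in yeast, fell at E3.75. It held 192, 185 and 206 CPM in Oct4 null and 295, 266 and 249.97 CPM in wild type libraries. All Oct4 null libraries were lower, with a difference of -0.47 (SE 0.11, limma adjusted p = 0.0123). The groups overlapped at the other stages, with 304, 323 and 298 CPM in Oct4 null and 241, 264 and 319 CPM in wild type libraries at E2.5, and 329, 274 and 261 CPM in Oct4 null and 284, 262 and 319.8 CPM in wild type libraries at E4.5. The E3.75 call held in 16 of 17 alternatives, with adjusted p from 0.0106 to 0.0723, and was lost with the first 2 libraries (0.0723).

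Tomm6 overlaps other transcripts at its end. Of the last 500 bases of its transcript, 272 are identical to Gm21981, an overlapping transcript annotated as subject to decay, and Tomm6os lies on the opposite strand. Tomm6os (ENSMUSG00000084880) held 34.7, 29.1 and 25.04 CPM in Oct4 null and 43.3, 45.0 and 26.0 CPM in wild type libraries at E3.75, which overlapped (difference -0.33, limma adjusted p = 0.482). Whether the counting used strand is not given in the sources used here, so reads of Tomm6 and Tomm6os cannot be told apart.

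The channel and the receptors of the TOM complex showed little difference between genotypes. Tomm40 (ENSMUSG00000002984), the channel, differed by 0.15 at E2.5 (SE 0.12), by 0.07 at E3.75 (SE 0.15) and by 0.05 in E4.5 embryos (SE 0.18), and the last was below 0 with TMM factors. Tomm22, the central receptor, differed by -0.02 at E2.5 (SE 0.12), by 0.07 at E3.75 (SE 0.11) and by -0.01 in E4.5 embryos (SE 0.12), and the first and the last were above 0 in thinned reads. Tomm70a, the receptor for carrier precursors, differed by -0.20 at E2.5 (SE 0.14), by 0.03 at E3.75 (SE 0.10) and by -0.18 in E4.5 embryos (SE 0.15). The limma adjusted p of these 3 genes lay between 0.444 and 0.978, and the values of their libraries overlapped except for Tomm70a at E4.5.

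Of the other Tomm genes, Tomm5 (ENSMUSG00000078713), a small TOM subunit, held 212, 219 and 213 CPM in Oct4 null and 111, 180.0 and 193 CPM in wild type libraries at E3.75. The Oct4 null libraries were all higher, and the difference of 0.45 did not pass (SE 0.16, limma adjusted p = 0.0792). It was 0.20 without wild type library 1 (0.313). It passed in edgeR (adjusted p = 0.0445) and in limma without wild type library 2 (0.0498). At E2.5 it held 331, 358 and 313 CPM in Oct4 null and 289, 303 and 285 CPM in wild type libraries (difference 0.19, limma adjusted p = 0.30). Tomm34, a cytosolic partner of import chaperones, averaged 13.6 ± 2.24 CPM in Oct4 null and 9.17 ± 3.11 CPM in wild type libraries at E3.75 (SD, n = 3 each; difference 0.56, limma adjusted p = 0.445).

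**Figure D3:**
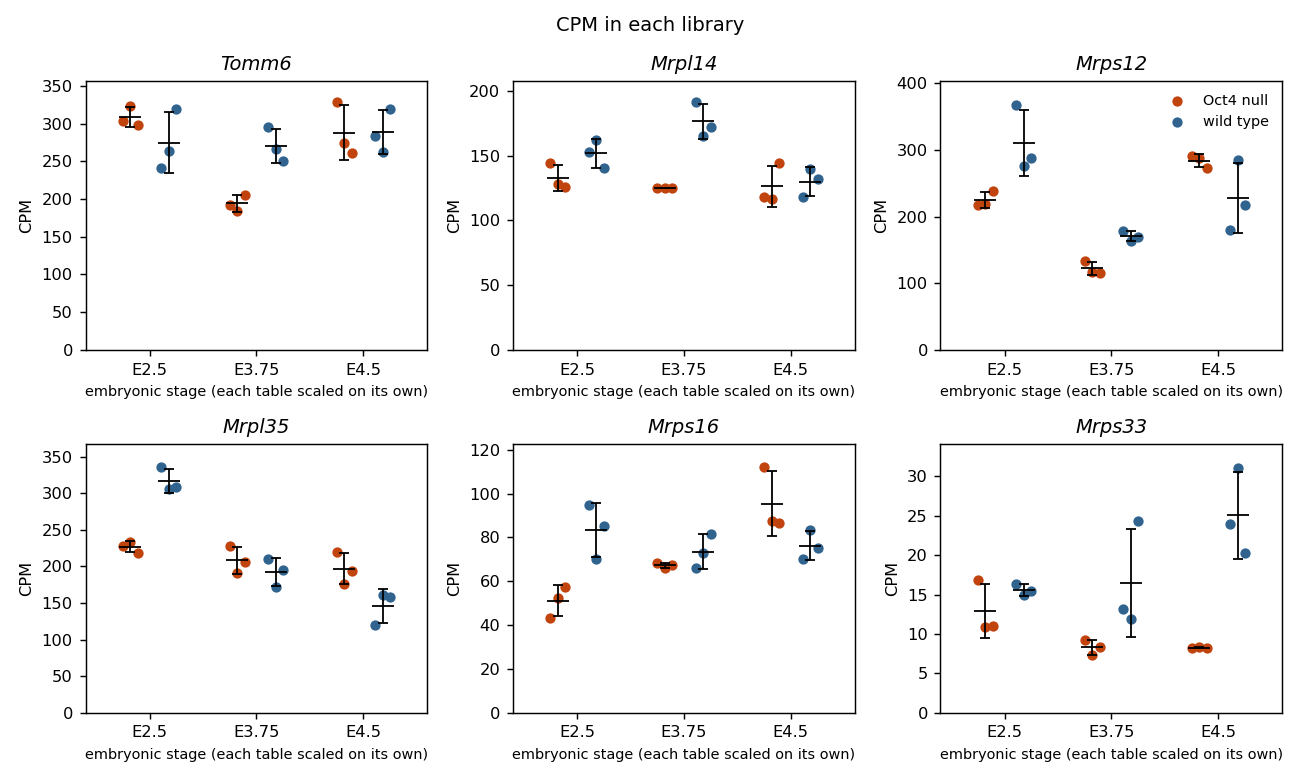
CPM of Tomm6, Mrpl14, Mrps12, Mrpl35, Mrps16 and Mrps33 in each library by stage, Oct4 null in orange left of wild type in blue, with the mean and SD of 3 libraries. At E3.75 Tomm6 sits at 185 to 206 CPM in Oct4 null and 249.97 to 295 CPM in wild type libraries, and Mrps33 at E4.5 sits at 8.19 to 8.37 CPM in Oct4 null and 20.2 to 31.0 CPM in wild type libraries; each stage table was scaled on its own.

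The inner membrane translocases held no gene that passed. Timm22 (ENSMUSG00000020843), the channel of the TIM22 complex that inserts carriers, held 598, 610.2 and 618 CPM in Oct4 null and 629, 492 and 580.4 CPM in wild type libraries at E2.5. At E3.75 it held 304, 337 and 281 CPM in Oct4 null and 348, 334 and 358 CPM in wild type libraries, and at E4.5 it held 249, 226 and 227 CPM in Oct4 null and 147, 213 and 176 CPM in wild type libraries. Only at E4.5 were the groups apart, with Oct4 null higher and a difference of 0.40 (SE 0.15, limma adjusted p = 0.248).

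Timm50 (ENSMUSG00000003438), the receptor of the TIM23 complex, held 169.9, 183 and 200.3 CPM in Oct4 null and 239, 248 and 221 CPM in wild type libraries at E4.5. Every Oct4 null library was lower, with a difference of -0.36 (SE 0.13, limma adjusted p = 0.227), and the groups overlapped at E2.5 and E3.75. The TIM23 channel subunits Timm17a and Timm17b also did not pass. Timm17b (ENSMUSG00000031158) held 117, 128 and 109 CPM in Oct4 null and 147, 151 and 149 CPM in wild type libraries at E3.75 (difference -0.34, SE 0.13, limma adjusted p = 0.127). Timm17a differed by -0.03 at E2.5, by -0.09 at E3.75 and by -0.25 in E4.5 embryos, and Timm44, which tethers the import motor, by -0.03, -0.10 and 0.41 at those stages, all with overlapping libraries.

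Of the small Tim chaperones, which guide hydrophobic precursors across the space between the membranes, none passed. Timm8b (ENSMUSG00000039016) held 82.2, 80.6 and 78.7 CPM in Oct4 null and 120.0, 100.2 and 122 CPM in wild type libraries at E2.5 (difference -0.49, SE 0.15, limma adjusted p = 0.108). At E3.75 the order was reversed, at 78.6, 86.5 and 77.2 CPM in Oct4 null and 71.5, 66.2 and 45.1 CPM in wild type libraries (difference 0.43, SE 0.19, limma adjusted p = 0.171). The groups did not overlap at either stage. The change of the Timm8b effect between these stages, 0.92, did not pass (SE 0.27, limma adjusted p = 0.0923).

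Timm13 (ENSMUSG00000020219), which pairs with Timm8 proteins, was higher in Oct4 null libraries at the first stages and lower at the last, without passing on all libraries of a stage. Its differences were 0.21 at E2.5 (SE 0.11), then 0.27 at E3.75 (SE 0.11) and -0.45 in E4.5 embryos (SE 0.17), and the groups did not overlap at any stage. The E3.75 difference of Timm13 was 0.14 without wild type library 3 (limma adjusted p = 0.566), 0.17 without the third libraries (0.759) and 0.37 without wild type library 2, where it passed (0.0488). Timm10 and Timm9, which form a chaperone complex together, differed by -0.22 and -0.36 at E2.5, with Oct4 null libraries all lower. At E3.75 Timm10 differed by 0.11 and Timm9 by 0.06, and at E4.5 by 0.21 and 0.08, with overlapping libraries.

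Timm8a2, Timm29, Timm10b and Timm8a1 had positive estimates at E2.5, and none passed. Timm8a2 (ENSMUSG00000071229) held 74.9, 60.3 and 54.2 CPM in Oct4 null and 29.5, 46.1 and 32.4 CPM in wild type libraries (difference 0.81, SE 0.23, limma adjusted p = 0.0930). Timm29 (ENSMUSG00000048429), a TIM22 subunit in human cells, held 88.8, 80.1 and 74.6 CPM in Oct4 null and 64.4, 42.6 and 51.9 CPM in wild type libraries (difference 0.62, SE 0.19, limma adjusted p = 0.116). For both genes every Oct4 null library was higher. Timm10b averaged 19.4 ± 5.03 CPM in Oct4 null and 12.1 ± 1.54 CPM in wild type libraries, while Timm8a1 averaged 11.3 ± 1.31 CPM in Oct4 null and 6.54 ± 4.19 CPM in wild type libraries, which overlapped (SD, n = 3 each). Timm8a1, Timm8a2, Timm10b and Mrps28 are in the table of E2.5 alone, and Mrpl27 in those of E2.5 and E4.5.

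The genotype effect itself changed between stages for 3 members. The effect at E4.5 minus the effect at E2.5 was tested in limma over all 18 libraries and the 5430 shared genes, and 3 of 91 members passed, all with a positive value, where 1.01% of all genes passed, 0.589% with a positive value. In this contrast 18 members (19.8%) had an unadjusted p under 0.05, against 17.1% of all genes. Mrpl35 changed by 0.91 (SE 0.18, limma adjusted p = 0.0213), Mrps16 by 1.01 (SE 0.25, limma adjusted p = 0.0480) and Mrps12 by 0.79 (SE 0.20, limma adjusted p = 0.0480). Each was lower in Oct4 null libraries at E2.5. For Mrpl35, E4.5 libraries held 219, 176 and 194 CPM in Oct4 null and 119.7, 161 and 158 CPM in wild type, without overlap. For E3.75 minus E2.5, 0 members passed in limma, where 1.12% of all genes did, and 12 (13.2%) had an unadjusted p under 0.05, against 13.9% of all genes. For E4.5 minus E3.75, 0 members passed in limma, where 0.0921% did, and 12 (13.2%) had an unadjusted p under 0.05, against 14.3% of all genes. No other tool was run on these contrasts. Summed over 6 measured epiblast markers, E2.5 libraries held 429.5 to 457.3 CPM in Oct4 null and 457.4 to 554 CPM in wild type. The E4.5 sums given above cover 10 measured markers, so the gaps of these stages are not over the same genes. The part of the epiblast markers in these 3 genes was not tested.

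The count of 3 depended on single libraries. It was 0 without Oct4 null library 3 of E2.5, where 0.0737% of all genes passed, without Oct4 null library 3 of E4.5 (0.166%) or without wild type library A of E4.5 (0.0921%). It was 6 without wild type library 2 of E2.5 (2.82%), 5 without wild type library B of E4.5 (3.11%), 3 without wild type library 1 of E3.75 (1.34%) and 1 without any other single library. The letters A, B and C stand for wild type libraries of E4.5, whose columns carry no number. With the first 2 libraries of each group no member passed and the adjusted p was 0.654 for each of the 3 genes, where 0% of all genes passed. Mrpl35 kept its call in 16 of 20 alternatives, and lost it without Oct4 null library 3 of E2.5 (0.0706), Oct4 null library 3 of E4.5 (0.0569) or wild type library A of E4.5 (0.0612). Mrps16 and Mrps12 kept theirs in 4 of 20 alternatives each, namely a pseudocount of 5 and the fits without wild type library 2 of E2.5, wild type library 1 of E3.75 or wild type library B of E4.5. Their adjusted p over the single-library fits reached 0.125 for Mrps16, without Oct4 null library 1 of E2.5, and 0.143 for Mrps12, without wild type library A of E4.5.

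Set at E4.5 against E2.5, the import families had more negative medians than the ribosome families in both genotypes. Over the single steps this order did not always hold: in wild type libraries at E3.75 against E2.5 the median was -0.28 for Tomm and -0.38 for Mrpl genes. These levels are per 1000000 reads on the shared genes, from separately scaled tables, and carry no test. Between E2.5 and E4.5, 7 of 11 Timm genes and 6 of 8 Tomm genes were lower at E4.5 in all Oct4 null libraries, where 42.4% of all genes were, and 7 of 11 Timm and 5 of 8 Tomm genes were lower in all wild type libraries, where 41.5% of all genes were. The median change was -1.14 for Timm and -0.74 for Tomm genes in Oct4 null libraries, against -0.21 over all genes. In wild type libraries it was -0.81 for Timm and -0.71 for Tomm genes, against -0.32 over all genes. For Mrpl genes it was -0.22 in Oct4 null and -0.46 in wild type libraries, and for Mrps genes -0.43 in Oct4 null and -0.39 in wild type libraries.

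The course differed between genes within the Timm and the Tomm family. Timm22 averaged 633 per 1000000 at E2.5, then 315 at E3.75 and 244 in E4.5 embryos in Oct4 null libraries, and 589, 357 and 186 at those stages in wild type libraries. Timm10 averaged 553, 441 and 218 in Oct4 null and 643, 417 and 186 in wild type libraries over the same stages. Both means were lower at each later stage in both genotypes, as were those of Tomm5 and Tomm22. Tomm40 was lowest at E3.75, with means of 266, 103 and 126 in Oct4 null and 239.9, 98.7 and 120.1 in wild type libraries. Tomm70a and Timm13 peaked at E3.75: Tomm70a averaged 224, 333 and 98.6 in Oct4 null and 254, 327 and 112 in wild type libraries. Timmdc1, the assembly factor of complex I, averaged 26.3, 55.4 and 67.1 in Oct4 null and 20.6, 57.2 and 58.2 in wild type libraries, lowest at E2.5 in both genotypes. Tomm6, Tomm7 and Timm44 overlapped between E2.5 and E4.5 in both genotypes.

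**Figure D4:**
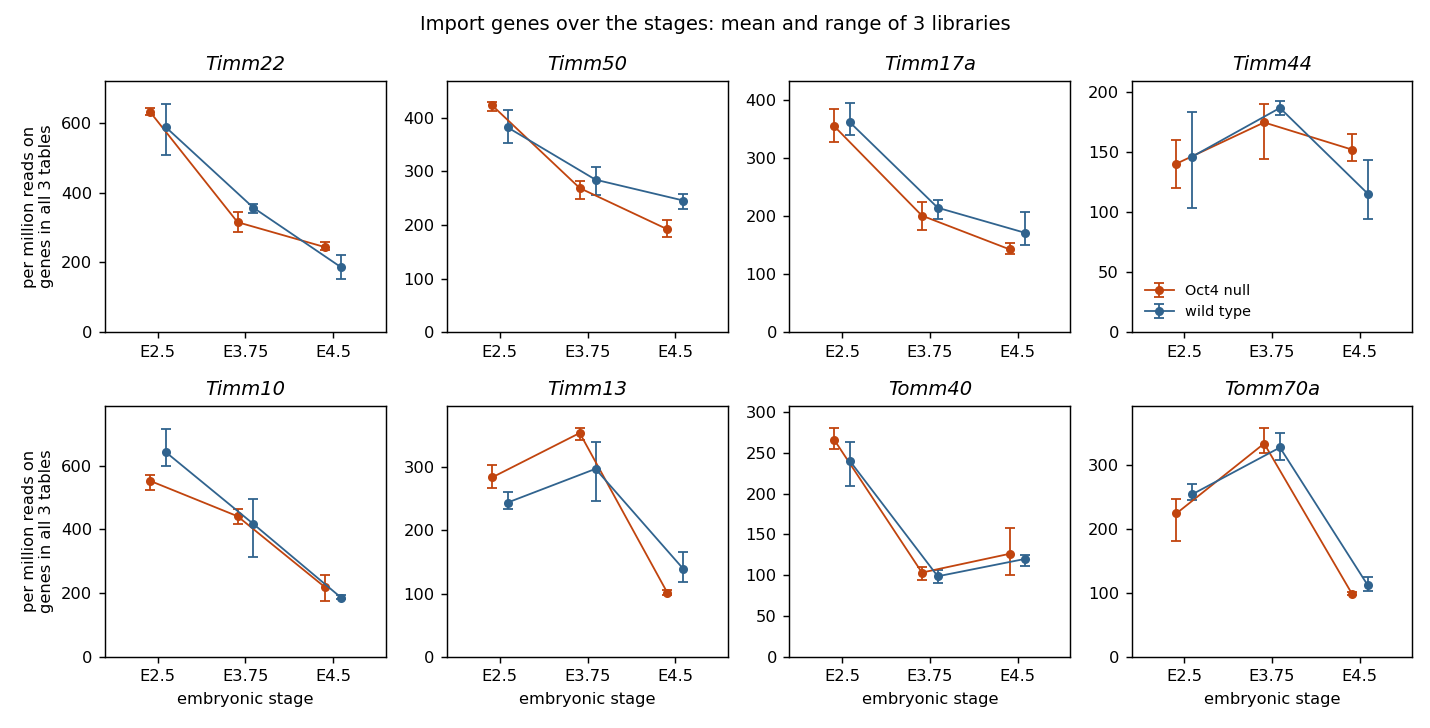
Levels of 8 import genes per 1000000 reads on genes present in all 3 tables, by stage, with points for the mean and bars for the range of 3 libraries, Oct4 null in orange left of wild type in blue; stage tables were scaled separately. Timm22 averages 633 in Oct4 null and 589 in wild type libraries at E2.5, and 244 in Oct4 null and 186 in wild type libraries at E4.5, while Tomm70a is highest at E3.75.

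Some ribosomal genes differed by stage in the same direction in both genotypes. Mrps27 averaged 103 per 1000000 at E2.5, then 20.9 at E3.75 and 14.9 in E4.5 embryos in Oct4 null libraries, and 95.2, 30.3 and 13.3 in wild type libraries. Mrpl1 averaged 54.0, 48.6 and 9.35 in Oct4 null and 76.9, 56.5 and 15.9 in wild type libraries. In the other direction, Mrpl24 averaged 374, 959 and 839.5 in Oct4 null and 342, 833 and 698 in wild type libraries, and its transcript end overlaps Rrnad1 on the other strand over 454 bases. Mrps33 was lower at E4.5 than at E2.5 in Oct4 null and higher in wild type libraries, with means of 13.4, 8.50 and 8.59 in Oct4 null and 16.2, 17.0 and 26.1 in wild type libraries.

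The 72 partner genes measured at E3.75 are genes listed for the ribosome and for import, with 12 regulators of mitochondrial biogenesis. Of the 72, 4 passed in limma, 2 higher and 2 lower in Oct4 null libraries, where 8.2% of all genes passed. Of 6 measured genes listed as ribosome proteins under other names, 0 passed at E3.75 in limma, edgeR or DESeq2. In limma 1 of the 6 had an unadjusted p under 0.05. The 6 include Oxa1l, which is not itself a ribosome protein. Of 7 measured translation factors 0 passed in any of these tools, and 0 had an unadjusted p under 0.05 in limma. Dap3 (ENSMUSG00000068921), a small subunit protein, held 155, 219.5 and 209 CPM in Oct4 null and 233, 290.4 and 255 CPM in wild type libraries, just short of the threshold (difference -0.42, limma adjusted p = 0.0501), and was named after its values were seen. Of 24 measured genes for ribosome assembly and mitochondrial RNA binding, 1 rose. C1qbp (ENSMUSG00000018446), a matrix protein needed for mitochondrial translation, held 2403, 2294 and 2348 CPM in Oct4 null and 1642, 1991 and 1875 CPM in wild type libraries (difference 0.36, SE 0.07, limma adjusted p = 0.00239). It passed in all 17 alternatives.

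Of 23 measured genes listed as import partners, 1 rose and 1 fell at E3.75, where 8.2% of all genes passed. That list is broad and also takes genes of matrix proteases, such as Clpx. Clpx (ENSMUSG00000015357), the unfoldase of the matrix protease ClpXP, held 184, 153 and 160.0 CPM in Oct4 null and 124, 112 and 92.0 CPM in wild type libraries (difference 0.60, SE 0.14, limma adjusted p = 0.0117). Hspd1 (ENSMUSG00000025980), the chaperonin that folds imported proteins, held 134, 132 and 148 CPM in Oct4 null and 188, 206 and 191 CPM in wild type libraries (difference -0.50, SE 0.12, limma adjusted p = 0.0149). The groups did not overlap for either gene. Clpx lost its call without Oct4 null library 1 (0.0803) or without wild type library 3 (0.0867), with all 18 libraries in one fit (0.0780) and with the first 2 libraries (0.229). Hspd1 lost its call without Oct4 null library 1 (0.0653), Oct4 null library 2 (0.0517) or without wild type library 3 (0.0579) and with the first 2 libraries (0.135).

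Of 12 measured regulators of mitochondrial biogenesis 1 passed at E3.75, where 8.2% of all genes did. Esrrb (ENSMUSG00000021255), a nuclear receptor that is also a pluripotency factor, fell. It held 40.5, 48.7 and 46.6 CPM in Oct4 null and 79.0, 71.3 and 60.8 CPM in wild type libraries (difference -0.62, SE 0.19, limma adjusted p = 0.0443). The call held in 3 of 17 alternatives, the pseudocounts of 0.1 and 5 and the CPM minimum. In every other alternative, each single library left out included, its adjusted p was between 0.0603 and 0.167. At E2.5, 0 of 73 partner genes passed in limma, where 0.593% of all genes did, and 14 had an unadjusted p under 0.05, against 20.4% of all genes. In edgeR 3 passed, where 2.53% of all genes did, and in DESeq2 6, where 4.27% of the 5434 genes with an adjusted p did. At E4.5, 0 of 75 passed in limma or edgeR, where 0% and 0.642% of all genes did. In DESeq2 0 passed, where 4.29% of the 2611 genes with an adjusted p did. In limma 7 of the 75 had an unadjusted p under 0.05, against 15% of all genes.

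Markers of the cell types of the blastocyst differed between genotypes too. At E3.75, 4.6% of all genes passed as lower in Oct4 null libraries and 3.6% as higher. Of 9 measured epiblast markers at that stage, 8 were below 0 and 1, Nanog, was above. Of these 9 markers 7 passed as lower and Nanog passed as higher in Oct4 null libraries. Their summed level was 622 to 646 CPM in Oct4 null and 691 to 792 CPM in wild type libraries. Of 11 measured primitive endoderm markers, 6 were below 0 and 5 above, and 5 passed as lower and 2 as higher, with sums of 1510 to 1647 CPM in Oct4 null and 1324 to 1489 CPM in wild type libraries. Of 13 measured trophectoderm markers, 8 were below 0 and 5 above, and 1, Tead4, passed, as higher, with sums of 6717 to 7685 CPM in Oct4 null and 7518 to 8735 CPM in wild type libraries. All 3 measured markers of maternal tissue, globins, were above 0 and 2 of them passed, with sums of 176 to 474 CPM in Oct4 null and 115 to 177 CPM in wild type libraries. Their part in the values of Tomm6, Mrpl14 and Mrps12 was not tested.

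At E4.5, where 0% of all genes passed in limma, some marker sums separated. Of 10 measured epiblast markers 9 were below 0, with a median of -0.56, and of 10 measured primitive endoderm markers 7 were, with a median of -0.95. The primitive endoderm sums were 1255 to 1445 CPM in Oct4 null and 1485 to 1617 CPM in wild type libraries, without overlap like the epiblast sums given above. Of 13 trophectoderm markers 8 were below 0, with overlapping sums of 12756 to 13808 CPM in Oct4 null and 13575 to 14579 CPM in wild type libraries. The maternal markers, 4 measured and all above 0, summed to 158 to 1099 CPM in Oct4 null and 155 to 275 CPM in wild type libraries. At E2.5 the trophectoderm sums were 3416 to 3838 CPM in Oct4 null and 3036 to 3411 CPM in wild type libraries. Of 11 trophectoderm markers 9 were above 0 and 1, Hand1, passed, where 0.593% of all genes did. The primitive endoderm and maternal sums overlapped at E2.5. The part of these markers in the Mrpl values and in the 3 changes between stages was not tested.

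The promoters of the genes that passed are shown because these are the sequences nearest to the transcripts that differed. They are RefSeq promoters of build GRCm38.p6, each from 250 bases before to 50 bases after the start of the gene, written 5′ to 3′ on the strand of the gene. Capitals mark matches, on either strand, to the NRF1 motif, the core motif of the ETS factor GABP (CCGGAAG) or the YY1 motif (AAGATGGCG), all factors known to regulate mitochondrial genes. The motifs and the promoters were chosen after values were seen. The first 3 genes fell at E3.75, and Mrps12 and the last 2 changed their effect between stages. Their places are chr17:47688337-47688636 on the minus strand for Tomm6, chr17:45686099-45686398 on the plus strand for Mrpl14, chr7:28741772-28742071 on the minus strand for Mrps12, chr6:71823735-71824034 on the minus strand for Mrpl35 and chr14:20393441-20393740 on the minus strand for Mrps16.
Tomm6: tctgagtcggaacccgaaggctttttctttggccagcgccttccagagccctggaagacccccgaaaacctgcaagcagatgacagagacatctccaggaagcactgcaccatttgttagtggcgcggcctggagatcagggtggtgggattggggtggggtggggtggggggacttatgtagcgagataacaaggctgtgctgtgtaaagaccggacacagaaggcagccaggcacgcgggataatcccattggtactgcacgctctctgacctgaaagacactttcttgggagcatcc
Mrpl14: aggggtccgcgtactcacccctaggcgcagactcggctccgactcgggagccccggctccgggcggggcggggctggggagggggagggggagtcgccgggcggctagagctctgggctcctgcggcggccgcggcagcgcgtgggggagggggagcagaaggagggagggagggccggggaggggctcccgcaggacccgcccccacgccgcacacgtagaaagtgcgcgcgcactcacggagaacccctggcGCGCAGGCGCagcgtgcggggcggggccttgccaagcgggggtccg
Mrps12: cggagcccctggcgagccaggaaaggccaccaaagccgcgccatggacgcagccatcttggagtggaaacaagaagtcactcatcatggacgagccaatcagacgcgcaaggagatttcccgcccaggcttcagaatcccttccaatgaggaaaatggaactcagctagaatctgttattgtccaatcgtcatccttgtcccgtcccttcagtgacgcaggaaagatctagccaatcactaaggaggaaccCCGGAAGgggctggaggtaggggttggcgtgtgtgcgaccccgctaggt
Mrpl35: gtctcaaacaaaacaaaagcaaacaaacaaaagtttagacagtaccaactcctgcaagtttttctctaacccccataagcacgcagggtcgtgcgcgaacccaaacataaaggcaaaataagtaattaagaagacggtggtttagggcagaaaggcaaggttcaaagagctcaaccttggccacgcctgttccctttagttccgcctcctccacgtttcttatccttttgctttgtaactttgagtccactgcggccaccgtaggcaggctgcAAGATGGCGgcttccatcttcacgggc
Mrps16: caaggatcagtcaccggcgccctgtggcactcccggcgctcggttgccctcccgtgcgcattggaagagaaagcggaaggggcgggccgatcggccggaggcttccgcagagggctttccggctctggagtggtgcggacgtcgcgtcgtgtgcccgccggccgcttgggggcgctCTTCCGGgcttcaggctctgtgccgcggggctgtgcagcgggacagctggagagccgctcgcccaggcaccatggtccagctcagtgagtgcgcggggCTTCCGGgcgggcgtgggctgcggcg

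None of these 3 motifs was in all 5 promoters. Tomm6 had no match, Mrpl14 had 1 NRF1 match, Mrps12 and Mrps16 had ETS core matches, and Mrpl35 had a YY1 match 23 bases into the transcript. Over the 86 members with a RefSeq promoter, 16.3% held the NRF1 motif, against 12.3% of the promoters of measured genes and 4.78% of all promoters. The ETS core was in 38.4% of members, 22.5% of measured genes and 9.12% of all promoters, and the YY1 motif in 10.5% of members, 4.23% of measured genes and 1.49% of all promoters. The SP1 box (GGGCGG) was in 47.7% of members, 67.3% of measured genes and 35.9% of all promoters, and the CCAAT box (CCAAT) in 36% of members, 39.3% of measured genes and 37.9% of all promoters. The TATA box (TATAAA) was in 6.98% of members, 6.21% of measured genes and 14.2% of all promoters. The octamer ATGCAAAT, the sequence bound by Oct4, was in 0% of members, 1.21% of measured genes and 1.75% of all promoters. A match describes letters in these windows and not binding.

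Many members start next to another gene. For 30 of the 86 members (34.9%) a gene on the other strand starts upstream within 1000 bases, against 20.5% of measured genes and 11.4% of all genes. Mrps12 starts 147 bases from Sars2, the mitochondrial seryl-tRNA synthetase, which had a difference of -0.03 at E3.75 (limma adjusted p = 0.968), while Mrps12 fell. Mrpl14 starts 131 bases from Tmem63b, which was not measured at E3.75. Mrpl46 and Mrps11, both members, start 42 bases apart, and at E2.5 they differed by -0.09 and -0.50. At E3.75, 17 of the listed pairs had both genes measured. Of the members in these pairs Mrps12 alone passed in limma, so no other pair could have had both genes past the threshold.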

How the data were processed

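Levels are CPM values deposited by the authors in 1 table per stage, each column summing to 1000000. Per the submitters' processing notes, edgeR and genome build mm9 were used; no source used here names the aligner, the counter or the annotation. Because 1 read is worth a fixed CPM in a library, whole reads were recovered for all 121650 values (100%, within 0.01 reads), and edgeR and DESeq2 were run on them as alternatives. The main test was limma 3.58.1 (R 4.3.3) on log2(CPM + 1), with a trended prior, Oct4 null minus wild type over the 6 libraries of a stage, two-sided, with Benjamini-Hochberg adjustment over all genes and a threshold of 0.05. Stage differences of the genotype effect were fitted over 18 libraries and 5430 shared genes. edgeR 4.0.16 and DESeq2 1.42.0 were used. The analysis was tested on simulated data. Alternatives were pseudocounts of 0.1 and 5, a mean of at least 10 CPM, TMM and DESeq2 size factors, thinning to equal depth, all 18 libraries in one fit, a replicate block, and fits without each library or with the first 2 libraries of a group. Depth over the genes kept in a table ran from 364936 to 1922432 reads, so 1 read was worth 2.74 to 0.520 CPM.

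Named genes are members past the threshold, the smallest p of a family where none passed, the 3 greatest estimates in each direction per stage at a mean of at least 10 CPM, the channel, receptor and small Tim genes, and up to 2 partner genes per direction and stage. Genes outside this rule, or given at another stage than the rule names, were chosen after their values were seen. Members and lists were chosen with earlier results of these data known. Promoters came from RefSeq (GRCm38.p6) for 86 of 96 members, and shared transcript ends were searched with blastn 2.17.0 over the last 500 bases, at 95% identity or more over at least 150 bases.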

Additional observations from a re-analysis of the deposited data

Results flagged for a closer look

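The genotype effect differed between stages for 3 genes, by the limma test of the difference itself over all 18 libraries. The effect at E4.5 minus that at E2.5 was 0.91 for Mrpl35 (SE 0.18, limma adjusted p = 0.0213), 1.01 for Mrps16 (SE 0.25, limma adjusted p = 0.0480) and 0.79 for Mrps12 (SE 0.20, limma adjusted p = 0.0480). In all 3 genes every Oct4 null library lay below every wild type library at E2.5. At E4.5 every Oct4 null library lay above every wild type library for Mrpl35 and Mrps16, and the groups overlapped for Mrps12. With the first 2 libraries of each group the adjusted p was 0.654 for each.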

How the results depend on the processing

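The count of members called at E2.5, 0 in the main analysis, was 1 with TMM factors (1.4% of all genes), 1 with DESeq2 size factors (1.31%), 2 in edgeR (2.53%), 3 in DESeq2 (4.27%), 3 with all 18 libraries in one fit (2.56%), and 0 to 11 without single libraries (0.0141% to 10.9%). At E3.75 the count of 3 became 5 in edgeR (8.3%), 1 in DESeq2 (6.65%), 0 with the first 2 libraries (2.33%) and 1 to 8 without single libraries (3.14% to 9.81%). The DESeq2 shares at both stages are over the genes to which DESeq2 gave an adjusted p. At E4.5 the count of 0 became 1 in edgeR (0.642%) and 1 with all 18 libraries (4.07%), and stayed at 0 without any single library (0% to 1.83%). For stage differences, leaving out single libraries gave 0 to 1 members for E3.75 minus E2.5 (0.0921% to 2.41% of all genes), 0 to 3 for E4.5 minus E3.75 (0% to 0.626%) and 0 to 6 for E4.5 minus E2.5 (0.0737% to 3.11%), and the first 2 libraries gave 0 for the last. Over all genes, edgeR called 179 at E2.5 against 42, and 42 at E4.5 against 0. Same-numbered libraries correlated by -0.031 to 0.121 in their deviations, so numbers were not taken as pairs; with the replicate block 0 members passed at E2.5 and 3 at E3.75, and 30 and 438 of all genes. No paired analysis was possible at E4.5 because its wild type columns carry no number. The sign of some uncalled differences turned, and the cause was not tested. Timm44 at E2.5 was 0.0053 and Timm8b at E4.5 0.0403 with the first 2 libraries. Timm9 at E4.5 was -0.0263 in edgeR, -0.0068 in DESeq2 and -0.18 thinned. Tomm22 was 0.0023 with TMM factors and 0.0111 thinned at E2.5, and 0.10 thinned at E4.5; Tomm40 at E4.5 was -0.0095 with TMM factors. Without single libraries, E2.5 values ran from -0.0885 to 0.0359 for Timm17a, -0.0230 to 0.333 for Timm17b, -0.26 to 0.15 for Timm44 and -0.0851 to 0.108 for Tomm22. E3.75 values ran from -0.0800 to 0.249 for Timm10, -0.18 to 0.0016 for Timm17a, -0.167 to 0.0313 for Timm44, -0.0024 to 0.12 for Timm9 and -0.0169 to 0.0815 for Tomm70a. E4.5 values ran from -0.0488 to 0.157 for Timm9, -0.0918 to 0.0467 for Tomm22 and -0.12 to 0.20 for Tomm40. Depth limits the lowest genes: Mrps33 and Mrpl1 at E4.5 rest on as few as 3 reads in a library.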
